A study of Mus musculus with 4 samples.

Results

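RNA-Seq levels of 10 genes of major histocompatibility complex (MHC) antigen presentation were compared between tumor-infiltrating Tc9 and Tc1 cells. The genes were chosen by symbol from the gene tables. They were *B2m*, *H2-K1* and *H2-D1* (chains of MHC class I), *Tap1*, *Tap2* and *Tapbp* (loading of class I), *H2-Aa*, *H2-Ab1* and *Cd74* (chains and chaperone of MHC class II) and *Ciita* (the class II coactivator), 10 of 15981 genes in all. Among the genes that could be tested, *H2-Ab1* was higher in Tc9 cells and the others did not pass the test in either direction.

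Both groups were Thy1.1+ Pmel-1 CD8+ T cells, which carry a transgenic receptor for the melanoma antigen gp100, on a C57BL/6 background. They were cultured for 5 days in all, first for polarization (Tc9 cells with IL-4, TGF-β and an antibody against IFN-γ, Tc1 cells with IL-2) and then, in both groups, in medium with IL-2, and were injected i.v. into Thy1.2+ B6 mice whose subcutaneous B16 melanoma was 10 days old. By the study's methods, hosts of both groups also received cyclophosphamide, peptide-pulsed dendritic cells and IL-2, and transferred cells were sorted from the tumor 14 days after transfer. Each group had 2 libraries, made from pooled RNA of several mice, and the number of mice behind each library and their ages are not given in the sources used here. The p-values therefore measure only the spread between these pools.

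MHC class I molecules consist of a heavy chain and β2-microglobulin and present peptides, made largely by the proteasome and carried into the endoplasmic reticulum by the TAP transporter, to CD8+ T cells. MHC class II molecules pair an α and a β chain around the invariant chain CD74, are loaded in endosomes with the help of H2-DM, and present to CD4+ T cells. Class I is made by nearly all nucleated cells, whereas class II is a feature of dendritic cells, macrophages and B cells, and mouse T cells are known for making little of it. CIITA is the coactivator required for most class II transcription, and NLRC5 is its counterpart for class I.

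The depth was estimated at 31834276 and 31927162 counts in Tc1 replicates 1 and 2 and at 31105615 counts in Tc9 replicate 1, and the table of Tc9 replicate 2 summed to 30822953 counts. The tables used here list genes in the order of their identifiers and run to different ends, so they cover 2 and 10 of the 10 genes in Tc1 replicates 1 and 2, and 7 and 10 in Tc9 replicates 1 and 2. *B2m* and *Ciita* could be compared over all 4 libraries. *H2-K1*, *H2-D1*, *H2-Aa*, *H2-Ab1* and *Cd74* were compared over Tc1 replicate 2 and both Tc9 libraries, where the lone Tc1 library was assumed to vary like the Tc9 libraries. *Tap1*, *Tap2* and *Tapbp* were compared only between the replicate 2 libraries, with no test. Genes tested with edgeR were called at an adjusted p under 0.05. Over all 4 libraries 17.4% of 1284 genes were called higher and 16.7% lower in Tc9 cells, and over the 3 libraries 7.51% of 2622 genes were called higher and 3.2% lower. In the 3-library comparison both Tc9 libraries lay above the Tc1 library for 44% of the genes and below it for 37.8%.

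The sorted cells carried the labelled T cell markers, with *Cd8a* at 21622, 21532, 21166 and 19330 counts in the Tc1 and then the Tc9 libraries. *Cd4* was at 50, 45, 56 and 58 counts. All 10 T cell markers listed were well above the level of 3 counts, which was 0.0940 to 0.0973 CPM (counts per mega-count of library size). Of the 9 tested, *Cd3e* and *Cd3g* were called higher and *Cd2* and *Cd5* lower in Tc9 cells, and 5 were not called. All 4 calls were among the 8 markers tested over 4 libraries, where 17.4% of all genes were called higher and 16.7% lower. With no filter on low counts, *Cd3e* and *Cd3g* lost their calls, while *Cd2* and *Cd5* kept theirs. These 4 calls were lost without Tc1 replicate 1 (edgeR adjusted p of 0.137 to 0.276) or Tc1 replicate 2 (0.141 to 0.327), and the log2 difference of *Cd3e*, 0.73, was 0.99 without Tc9 replicate 1 and 0.40 without Tc9 replicate 2. In these bulk samples, fewer cells of a type and less RNA per cell cannot be told apart.

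Many MHC promoters are known to carry a short element, the Y box, whose letters GATTGG are bound by the factor NF-Y. On the opposite strand the element reads CCAATC. Of the 10 genes, 6 have a promoter in the RefSeq table used (GRCm38.p6). *H2-Ab1*, *Tap2*, *Cd74* and *Ciita* have none there and were not searched. GATTGG was searched on both strands of the 250 bases before each start and was found in 14.6% of 32851 promoters. It lay on the gene strand 54 bases before the start of *B2m* and 49 before that of *H2-Aa*. The last 120 bases before the start are shown for *B2m* (chr2:122147567-122147686, + strand), for *H2-Oa* (chr17:34092259-34092378, +), *H2-DMb1* (chr17:34153071-34153190, +) and *H2-Ob* (chr17:34238785-34238904, +), which were called higher in Tc9 cells, and for the class II chains *H2-Aa* (chr17:34287824-34287943, − strand) and *H2-Eb1* (chr17:34305747-34305866, +), which were not called. Capitals mark the element on either strand.
B2m: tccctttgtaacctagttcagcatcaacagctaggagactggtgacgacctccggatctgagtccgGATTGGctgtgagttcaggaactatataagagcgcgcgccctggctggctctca
H2-Oa: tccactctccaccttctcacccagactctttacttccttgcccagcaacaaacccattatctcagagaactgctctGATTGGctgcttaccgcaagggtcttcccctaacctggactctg
H2-DMb1: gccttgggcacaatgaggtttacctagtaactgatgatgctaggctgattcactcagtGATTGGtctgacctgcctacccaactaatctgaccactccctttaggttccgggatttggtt
H2-Ob: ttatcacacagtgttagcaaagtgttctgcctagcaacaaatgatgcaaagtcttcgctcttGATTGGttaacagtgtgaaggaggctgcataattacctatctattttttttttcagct
H2-Aa: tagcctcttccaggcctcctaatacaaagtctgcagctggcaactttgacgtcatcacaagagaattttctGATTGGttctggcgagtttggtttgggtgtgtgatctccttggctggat
H2-Eb1: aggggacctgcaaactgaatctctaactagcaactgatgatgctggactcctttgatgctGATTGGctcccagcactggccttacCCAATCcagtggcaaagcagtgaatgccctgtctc
The element lay 44 bases before *H2-Oa*, 62 before *H2-DMb1*, 58 before *H2-Ob* and 60 before *H2-Eb1*, so among these promoters, which were shown because they hold it, are genes called higher and genes not called. Of the 6 of the 10 genes with a promoter in the table, 5 held it on either strand at 1 start or more, and *Tapbp* did not. *H2-DMa*, called higher, held it at 1 of 2 starts, 199 bases before it, and *Psmb8*, not called, did not hold it. The match of letters is a description of the sequence and not of binding.

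Class I chains were the most abundant of the 10 genes and did not pass the test. *B2m* (chr2:122147687-122153082), which encodes β2-microglobulin, had 54871, 55176, 53747 and 47345 counts, or 2394, 2430, 2412 and 2138 FPKM (fragments scaled by gene length and library size, as deposited), in the Tc1 libraries and then the Tc9 libraries by replicate number. In FPKM the groups overlapped, with Tc9 replicate 1 between the Tc1 libraries and Tc9 replicate 2 apart from the other 3. In CPM with TMM scaling (1741 and 1757 in the Tc1 libraries, 1713 and 1509 in the Tc9 libraries) both Tc9 libraries lay below both Tc1 libraries, as for 35.7% of genes in that comparison. The log2 difference, Tc9 minus Tc1, was -0.12 (SE 0.0995, 95% interval -0.34 to 0.10, edgeR adjusted p = 0.378). Without Tc9 replicate 1 it was -0.21 and passed (edgeR adjusted p = 0.00826, range over 9 alternatives 0.00826 to 0.742).

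*H2-K1* (chr17:33996012-34000619) and *H2-D1* (chr17:35263094-35267497) encode the classical heavy chains. *H2-K1* had 24291 counts in Tc1 replicate 2 against 25649 and 26639 in Tc9 replicates 1 and 2, or 499, 540 and 565 FPKM. Both Tc9 libraries were slightly above the Tc1 library, and the log2 difference was 0.11 (SE 0.20, 95% interval -0.37 to 0.59, edgeR adjusted p = 0.761). *H2-D1* had 31222, 29575 and 31997 counts in the same libraries, or 614, 596 and 650 FPKM, and the Tc1 library lay between the Tc9 libraries. Its log2 difference was -0.02 (SE 0.19, 95% interval -0.50 to 0.46, edgeR adjusted p = 0.953), with a sign that depended on the scaling. *H2-D1* stood 1.23-fold above *H2-K1* in FPKM in the Tc1 library and 1.10-fold and 1.15-fold in the Tc9 libraries. *B2m* was 2.18, 2.12 and 1.76 times the sum of the heavy chains in FPKM in the same order. Class I heavy chain genes are near-identical over parts of their length, and the sharing of reads among them makes each count uncertain.

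The 3 loading genes were read in Tc1 replicate 2 and Tc9 replicate 2 only, with no test, and their 95% Wilson intervals cover counting error only. *Tap1* (chr17:34187556-34197225), which encodes a chain of the TAP peptide transporter, had 10359 counts (115 FPKM) in the Tc1 library and 14424 (166 FPKM) in the Tc9 library, a log2 ratio of 0.48 (interval 0.44 to 0.51). *Tapbp* (chr17:33919478-33929290), which encodes tapasin, the bridge between TAP and class I, had 6710 (80.5 FPKM) and 8934 counts (111 FPKM), a log2 ratio of 0.41 (0.37 to 0.46). *Tap2* (chr17:34204479-34216321), the partner chain of the transporter, had 4794 (63.9 FPKM) and 4575 counts (63.1 FPKM), a log2 ratio of -0.07 (-0.12 to -0.01). *Tap1* and *Tapbp* were thus 1.39-fold and 1.33-fold higher in the Tc9 library, and the partner chains of TAP were unequal between the libraries. The Tc9 libraries themselves differed by up to 0.73 on the log2 scale for 95% of 2622 genes. The Tc1 libraries differed by up to 0.52 for 95% of 1284 genes. Both ranges hold all 3 ratios, and both include genes with far lower counts than these. Of the 10 genes 9 passed the filter on low counts in this pair, of which 5 had a ratio above 0 and 1 was past 2-fold higher. Over all 6161 genes in this pair 52.4% had a ratio above 0, 10.5% were past 2-fold higher and 4.72% past 2-fold lower.

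**Figure D1:**
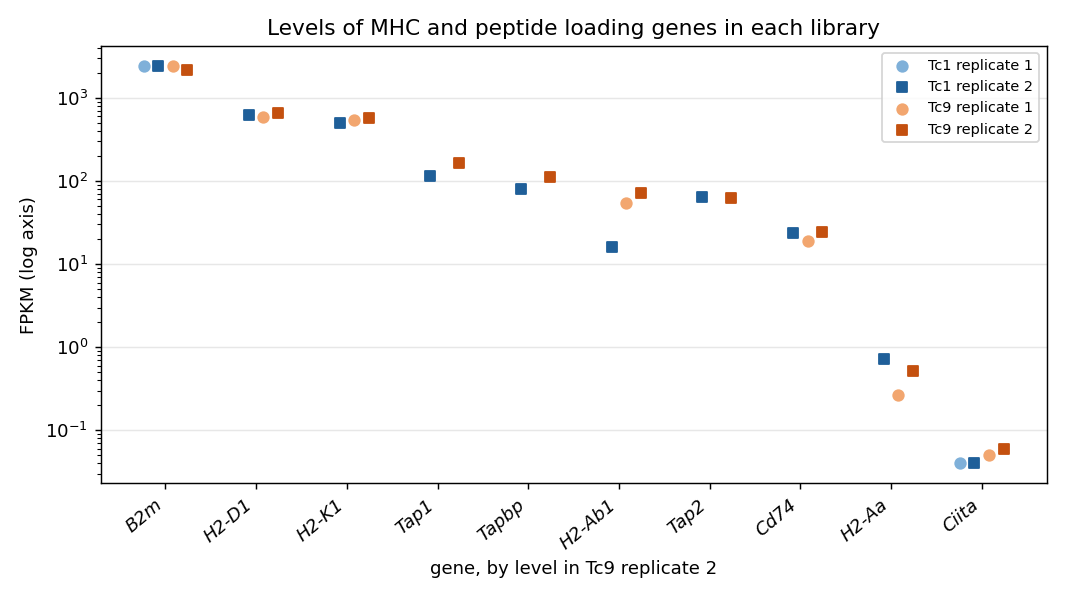
FPKM on a log axis of each of the 10 genes in each library whose table covers it, with circles for replicate 1 and squares for replicate 2, Tc1 in blue and Tc9 in orange, and genes ordered by their level in Tc9 replicate 2. *H2-Ab1* is the gene whose Tc9 points (54.6 and 71.3 FPKM) stand clear of its Tc1 point (15.9 FPKM).

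Class II genes covered a far wider range of levels, and of the chains of I-A the β chain passed the test and the α chain did not. *H2-Ab1* (chr17:34263227-34269418), which encodes the β chain of I-A, had 532 counts in Tc1 replicate 2 against 1785 and 2314 in Tc9 replicates 1 and 2, or 15.9, 54.6 and 71.3 FPKM. Both Tc9 libraries were well above the Tc1 library and closer to each other than to it. The log2 difference was 1.95 (SE 0.27, 95% interval 1.28 to 2.61), a 3.85-fold higher level in Tc9 cells (edgeR adjusted p = 0.0107). The call was lost when no filter on low counts was applied (edgeR adjusted p = 0.214), a setting under which no gene of the 3-library comparison was called higher or lower by edgeR. Under the other 4 alternatives the difference was 1.90 to 1.99, with adjusted p-values of 7.7e-11 to 0.000995 from edgeR, DESeq2 and limma.

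*H2-Aa* (chr17:34282744-34287823), which encodes the α chain that pairs with the product of *H2-Ab1*, was near the limit of detection. It had 22 counts in Tc1 replicate 2 against 8 and 15 in Tc9 replicates 1 and 2, or 0.73, 0.27 and 0.52 FPKM. Both Tc9 libraries lay below the Tc1 library. The log2 difference was -0.93 (SE 0.53, 95% interval -2.21 to 0.36, edgeR adjusted p = 0.313), so neither a fall nor a small rise could be told at this depth. *H2-Ab1* was 21.8 times *H2-Aa* in FPKM in the Tc1 library and 202 and 137 times in the Tc9 libraries.

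*Cd74*, on chromosome 18, encodes the invariant chain that stabilizes class II dimers until they are loaded. It had 836 counts in Tc1 replicate 2 against 663 and 833 in Tc9 replicates 1 and 2, or 23.7, 19.1 and 24.2 FPKM. The Tc1 library and Tc9 replicate 2 were nearly equal, and the log2 difference was -0.16 (SE 0.23, 95% interval -0.73 to 0.41, edgeR adjusted p = 0.696). *H2-Ab1* stood at 0.672 of *Cd74* in FPKM in the Tc1 library and at 2.86 and 2.94 times it in the Tc9 libraries. *Ciita* (chr16:10480014-10531064) had 6 counts in each Tc1 library and 8 and 9 in the Tc9 libraries, at 0.04 to 0.06 FPKM. It was under the filter on low counts and was not tested. Its log2 ratio between the replicate 2 libraries was 0.46 (95% Wilson interval -0.85 to 2.02), so no difference was detectable at this depth.

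In all, 6 of the 10 genes were tested, of which 1 was called higher, 0 were called lower and 5 were not called, with a median log2 difference of -0.07. The 1 call was among the 5 genes tested over 3 libraries, where 7.51% of all genes were called higher, and *B2m* was tested over 4 libraries, where 17.4% were. The median over all genes tested was 0.05 in the 3-library comparison and 0.0014 over 4 libraries. DESeq2 and limma also called *H2-Ab1* higher. In Tc9 replicate 2 the order of levels was *B2m*, *H2-D1*, *H2-K1*, *Tap1*, *Tapbp*, *H2-Ab1*, *Tap2*, *Cd74*, *H2-Aa* and *Ciita*. *H2-D1* and *H2-K1*, and *H2-Ab1* and *Tap2*, were neighbors whose levels differed by less than 0.40 on the log2 scale. That value is the SD, over genes, of the difference between the Tc9 libraries, and does not measure the error of comparing different genes. In Tc1 replicate 2, *H2-Ab1* came below *Tap2* and *Cd74*.

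**Figure D2:**
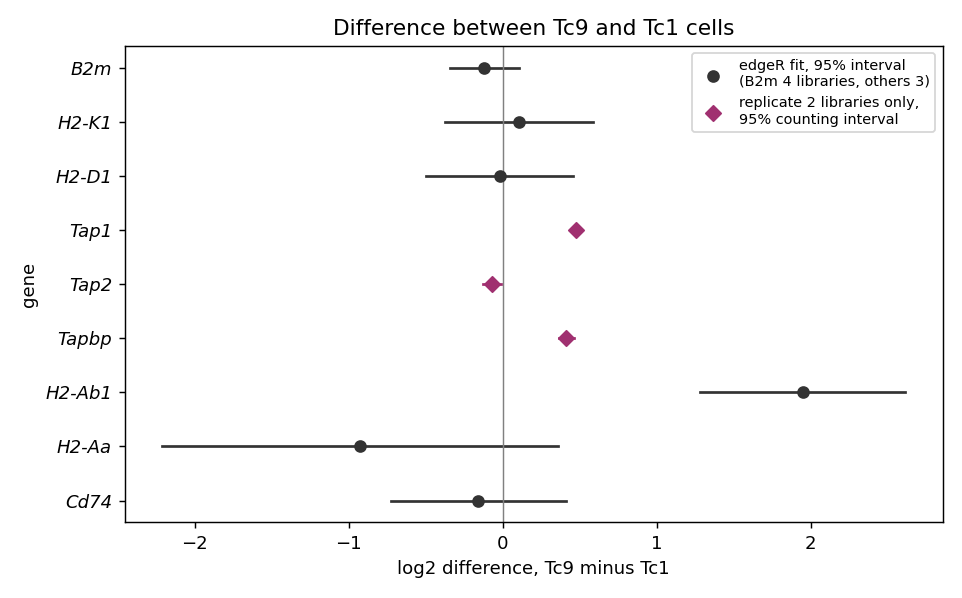
Log2 difference between Tc9 and Tc1 cells for the 9 genes that passed the filter, as circles with 95% intervals from the edgeR fits (*B2m* over 4 libraries, the others over 3) or as diamonds with 95% counting intervals for genes read in the replicate 2 libraries only. The interval of *H2-Ab1* (1.28 to 2.61) lies above 0, and those of the other 5 tested genes cross 0.

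*H2-Ab1* lies in the class II region of chromosome 17, a stretch of 224 kb from *H2-Oa* to *H2-Eb1*, and its neighbors were compared after its own values were seen. Of 13 genes listed there 11 were tested, and 5 were called higher, 0 lower and 6 not called, against 7.51% called higher and 3.2% lower over all genes. Without *H2-Ab1*, which prompted the comparison, 4 of 10 were called higher. The genes called higher encode H2-DM, which edits the peptides of class II (*H2-DMa* and *H2-DMb1*), H2-O, which restrains H2-DM (*H2-Oa* and *H2-Ob*), and the I-A β chain (*H2-Ab1*). The 6 not called were *Brd2*, *H2-DMb2*, *Psmb9*, *Psmb8*, *H2-Aa* and *H2-Eb1*. *H2-Ab1* and *H2-Aa*, which are 13.3 kb apart and are neighbors in the gene order, were on different sides of the threshold.

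*H2-DMa* had 668 counts in Tc1 replicate 2 against 2257 and 2957 in Tc9 replicates 1 and 2 (13.8, 47.8 and 63.2 FPKM), a log2 difference of 1.97 (SE 0.28, edgeR adjusted p = 0.0109). *H2-DMb1* had 232, 825 and 805 counts (2.30, 8.80 and 8.66 FPKM), a log2 difference of 1.81 (SE 0.23, edgeR adjusted p = 0.00758). Each Tc9 library was above the Tc1 library for both chains of H2-DM. *H2-DMb2*, a close copy of *H2-DMb1* with which reads can be shared, had 46.7, 104 and 134 counts and a log2 difference of 1.34 (SE 0.32, edgeR adjusted p = 0.0548, range over 5 alternatives 0.00132 to 0.257). The annotated span of *H2-DMa* overlaps *Brd2*, and whether strand was used in counting is not stated. *Brd2* itself was not called.

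Both H2-O chains were called higher as well. *H2-Oa* had 170 counts in Tc1 replicate 2 against 429 and 545 in the Tc9 libraries (5.80, 14.95 and 19.1 FPKM), a log2 difference of 1.52 (SE 0.27, edgeR adjusted p = 0.0205). *H2-Ob* had 76, 211 and 173 counts (0.91, 2.41 and 2.05 FPKM), a log2 difference of 1.34 (SE 0.28, edgeR adjusted p = 0.0368). For both genes the Tc9 libraries were nearer to each other than to the Tc1 library. *H2-Eb1*, the β chain of I-E, had 29, 23 and 37 counts with the Tc1 library between the Tc9 libraries (0.60, 0.48 and 0.78 FPKM). Its log2 difference was 0.05 (SE 0.44, 95% interval -1.03 to 1.13, edgeR adjusted p = 0.950). Each of the 5 calls in the region was lost with no filter on low counts.

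**Figure D3:**
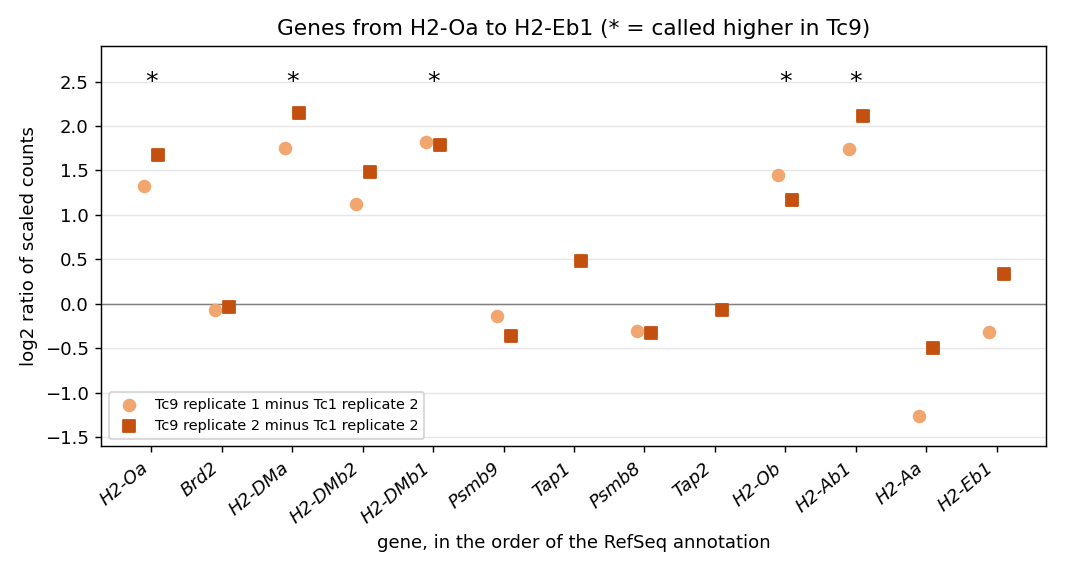
Log2 ratio of scaled counts to Tc1 replicate 2 for Tc9 replicate 1 (circles) and Tc9 replicate 2 (squares), for the 13 genes from *H2-Oa* to *H2-Eb1* in gene order and not to the scale of distance, with stars over the genes called higher. Starred genes lie between 1.17 and 2.14, while *H2-Aa*, next to *H2-Ab1*, lies at -1.26 and -0.50.

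The class II list held 18 symbols, of which 14 were listed and 9 tested, with 4 called higher, 0 lower and 5 not called and a median log2 difference of 1.34. All 9 were tested over 3 libraries, where 7.51% of all genes were called higher and 3.2% lower and the median was 0.05. The 4 were the H2-DM and H2-O genes above. The symbols include an older and a newer name for 2 ubiquitin ligases. Of the endosomal proteases that prepare class II for loading, *Ctss*, *Ctsl* and *Ctsb* were tested and were not called by edgeR. *Ctss*, the protease that trims the invariant chain, had 949 counts in Tc1 replicate 2 against 575 and 390 in the Tc9 libraries. Its log2 difference was -0.98 (SE 0.27, edgeR adjusted p = 0.0827, range over 5 alternatives 0.000345 to 0.331), and it was called lower by DESeq2 (adjusted p = 0.0165) and by edgeR with depth alone or with TMM factors of the 3-library range. *Ctsl* and *Ctsb* were at log2 differences of 0.51 and 0.30.

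The list of class I peptide supply held 13 genes, of which 6 were tested, with 0 called higher, 1 lower and 5 not called and a median log2 difference of -0.34. Over all 4 libraries 1 of 2 was called lower, where 16.7% of all genes were, and over 3 libraries 0 of 4, where 3.2% were. The 1 called lower was *Calr*, the calreticulin chaperone of the loading complex, with 28306 and 28310 counts in the Tc1 libraries against 21687 and 22233 in the Tc9 libraries. The groups did not overlap, and the log2 difference was -0.36 (SE 0.0946, edgeR adjusted p = 0.0157), a call that was lost without Tc1 replicate 1 (edgeR adjusted p = 0.255) or Tc1 replicate 2 (0.266). *Psmb8* and *Psmb9* encode immunoproteasome subunits. *Psmb8* had 8698, 7036 and 6931 counts in Tc1 replicate 2 and Tc9 replicates 1 and 2, a log2 difference of -0.32 (edgeR adjusted p = 0.375). *Psmb9* had 3005, 2742 and 2338 counts, a log2 difference of -0.24 (edgeR adjusted p = 0.529). Neither passed, although each Tc9 library was below the Tc1 library.

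*Tap1* and *Psmb9* are read in opposite directions from starts that are 225 bases apart. In the replicate 2 libraries, the log2 ratio of *Tap1* was 0.48 and that of *Psmb9* was -0.36. The sequence between them (chr17:34187331-34187555, + strand, the strand of *Tap1*) is shown because both genes start at its ends, with CCAATC in capitals.
Tap1-Psmb9 intergenic: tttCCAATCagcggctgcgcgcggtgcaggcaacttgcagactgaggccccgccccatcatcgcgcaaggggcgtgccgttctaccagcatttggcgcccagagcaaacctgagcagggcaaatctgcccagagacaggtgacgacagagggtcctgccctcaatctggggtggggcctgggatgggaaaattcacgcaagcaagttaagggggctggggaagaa
The element lay 9 bases before the start of *Psmb9* and 222 before that of *Tap1*.

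Of the class I-like and nonclassical genes, 23 were searched, 19 listed and 14 tested, with 2 called higher, 0 lower and 12 not called and a median log2 difference of -0.19. Both calls were among the 13 tested over 3 libraries, where 7.51% of all genes were called higher. *H2-Q2*, a Qa-region gene, had 16 counts in Tc1 replicate 2 against 76.9 and 92.0 in the Tc9 libraries, a log2 difference of 2.39 (SE 0.38, edgeR adjusted p = 0.0154). *Fcgrt*, which encodes the neonatal Fc receptor and needs β2-microglobulin, had 25.1, 122 and 107 counts, a log2 difference of 2.19 (SE 0.33, edgeR adjusted p = 0.0133). Both are low in level, and their Tc9 libraries were well above the Tc1 library. With limma on log2(FPKM + 1) the differences of *H2-Q2* and *Fcgrt* were smaller, at 1.11 and 1.04. The far more abundant *H2-T23* (Qa-1) had 8350, 5889 and 5499 counts and a log2 difference of -0.55 (edgeR adjusted p = 0.166).

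Among 20 transcriptional regulators of MHC genes 9 were tested, with 1 called higher, 1 lower and 7 not called and a median log2 difference of 0.29. The gene called higher was among 8 tested over 3 libraries (7.51% of all genes) and the gene called lower was the 1 tested over 4 (16.7%). *Irf4*, an interferon regulatory factor of activated lymphocytes, had 18150 counts in Tc1 replicate 2 against 44730 and 42747 in the Tc9 libraries, a log2 difference of 1.27 (SE 0.20, edgeR adjusted p = 0.0148). *Prdm1*, which encodes Blimp-1, a known repressor of *Ciita* in plasma cells, had 336 and 359 counts in the Tc1 libraries against 89 and 108 in the Tc9 libraries, a log2 difference of -1.81 (SE 0.17, edgeR adjusted p = 3.96e-05). Neither group overlapped the other for these genes. With limma on log2(FPKM + 1) the difference of *Prdm1* was smaller, at -0.94. *Irf1*, an activator of class I genes, had 2590, 4398 and 4184 counts and a log2 difference of 0.73 (edgeR adjusted p = 0.0975, range over 5 alternatives 0.0229 to 0.249). *Irf8* had 14755, 7556 and 8654 counts and a log2 difference of -0.86 (edgeR adjusted p = 0.0567, range 0.00145 to 0.249). *Nlrc5*, the class I coactivator, had 9187 counts and *Rfx5*, a subunit of the factor on which CIITA assembles, 1056 counts in Tc9 replicate 2, the only table that reaches them.

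Of 21 genes of the IFN-γ pathway, the classical inducer of MHC genes, 13 were tested, with 1 called higher, 2 lower and 10 not called and a median log2 difference of 0.29. The 3 calls were among 12 tested over 3 libraries, where 7.51% of all genes were called higher and 3.2% lower. *Ifng* had 15303 counts in Tc1 replicate 2 against 5097 and 4700 in the Tc9 libraries, a log2 difference of -1.64 (SE 0.21, edgeR adjusted p = 0.00747). *Cxcl10*, a chemokine induced by interferons, had 238, 21 and 12 counts, a log2 difference of -3.84 (SE 0.34, edgeR adjusted p = 0.00271). *Ifngr2*, the signaling chain of the IFN-γ receptor, had 393, 1309 and 1104 counts, a log2 difference of 1.62 (SE 0.24, edgeR adjusted p = 0.0124). *Ifngr1*, the ligand-binding chain of the receptor, had 1180, 1019 and 1009 counts, a log2 difference of -0.22 (edgeR adjusted p = 0.529). In the replicate 2 libraries *Gbp5* and *Gbp7*, interferon-induced GTPases, were at log2 ratios of -2.12 and -1.47, and were named because these ratios were past 1. Other interferon-induced GTPases of the list were at -0.04 (*Gbp2*), 0.15 (*Gbp4*), 0.03 (*Gbp6*), 0.37 (*Igtp*) and 0.37 (*Irgm1*) in the same pair.

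**Figure D4:**
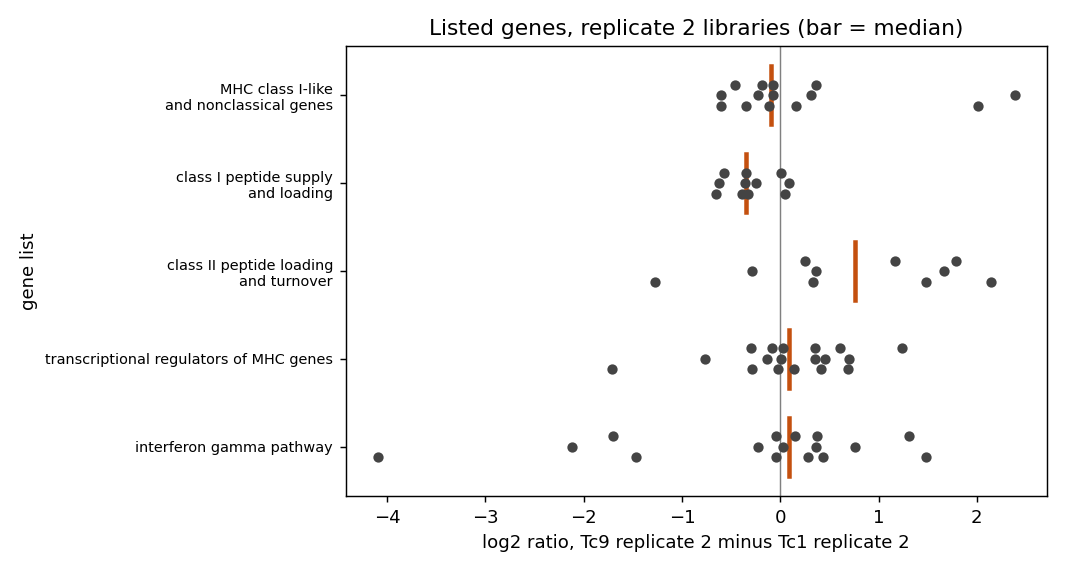
Log2 ratio of Tc9 replicate 2 to Tc1 replicate 2 for each listed gene past the filter on low counts (points) and the median of each list (bars), for 5 lists that leave out the 10 genes. The median was 0.76 for class II loading and turnover and -0.35 for class I peptide supply, beside 0.03 over all 6161 genes.

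Markers of other cells that the tumor could hold were read beside the class II genes. Of 6 B cell markers covered in the replicate 2 libraries, 3 had 3 counts or fewer in both. Their summed level was 5.51 CPM in Tc1 replicate 2 and 12.8 and 15.7 CPM in Tc9 replicates 1 and 2, most of it from *Cd79b* (155, 380 and 473 counts, log2 difference 1.46, edgeR adjusted p = 0.0219). The defining B cell gene *Ms4a1* was near 0, with 2 counts in each Tc1 library and 4 and 1 in the Tc9 libraries. Of 11 macrophage and monocyte markers covered, 8 had 3 counts or fewer in both replicate 2 libraries, with *Lyz2* at 0, 3 and 0 counts. *Itgam* had 12 counts in Tc1 replicate 2 against 9 and 2 in Tc9 replicates 1 and 2 (log2 difference -1.11, edgeR adjusted p = 0.419). The summed level of the macrophage and monocyte markers was 7.58, 11.9 and 14.5 CPM, most of it from *Cd68* (226, 221, 358 and 439 counts, log2 difference 0.84, edgeR adjusted p = 0.00295, and 0.0760 without Tc1 replicate 1).

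Of the dendritic cell markers, *Itgax* had 154, 171 and 188 counts in Tc1 replicate 2 and Tc9 replicates 1 and 2, *Flt3* 6, 0 and 3 counts, and *Xcr1* 15.1 and 33 counts in the replicate 2 libraries. *Ccr7*, which T cells also make, took most of the summed dendritic cell level of 509 CPM in Tc1 replicate 2 and 303 CPM in Tc9 replicate 2. *Foxp3*, a marker of regulatory CD4+ T cells, had 34.6 counts in Tc1 replicate 2 and 1592 in Tc9 replicate 2. The other CD4+ T cell markers in the same pair were *Zbtb7b* at 283 and 258 counts and *Cd4* at 45 and 58. Of 8 melanoma markers 3 had values here. *Pmel* and *Tyr* had 70.0 and 6 counts in Tc1 replicate 2 against 117 and 12.9 in Tc9 replicate 2, and *Mitf* had 6, 7 and 5 counts in Tc1 replicate 2 and Tc9 replicates 1 and 2. The summed B cell and macrophage levels were thus higher in the Tc9 libraries, as *H2-Ab1* was, while *Cd74* and *H2-Aa*, which those cells make in abundance, were not called. The part of these cells in the class II differences was not tested.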

How the data were processed

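RNA of sorted cells was sequenced in 2 Tc1 and 2 Tc9 libraries. The authors deposited expected counts per gene, not normalized, and FPKM values (scaled by gene length and library size), with mm10 named in the submitters' processing notes; the aligner and counting program are not given in the sources used here. A partial last row (1) was dropped, and genes not listed within a table's range were taken as 0. Depth was estimated from count and FPKM over genes with at least 500 counts. Rounded expected counts were tested in edgeR 4.0.16 (R 4.3.3) by quasi-likelihood (two-sided, Benjamini-Hochberg over all genes tested, filterByExpr at 10 counts, TMM factors 0.990, 0.983, 1.01 and 1.02). The fit was first run on simulated counts. Their spread was set and not taken from these libraries, so that run does not show how the fit performs here. Ratios of the replicate 2 libraries used a prior count of 2. Alternatives were DESeq2 1.42.0, limma 3.58.1 on log2(FPKM + 1), other scalings, no filter, a replicate block and each library left out.

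The 10 genes and the gene lists were chosen with earlier results of these data known. Named were the 10 genes, listed genes that were called, listed genes covered by the replicate 2 libraries alone with a log2 ratio past 1 and over 20 counts, and *Nlrc5*, *Rfx5*, *Irf1*, *Ifng*, *Psmb8* and *Psmb9*; a further gene of the rule is not reported here. Other genes (*H2-T23*, *H2-DMb2*, *H2-Eb1*, *Ctss*, *Ctsl*, *Ctsb*, *Irf8*, *Ifngr1*, *Brd2*, *Gbp2*, *Gbp4*, *Gbp6*, *Igtp*, *Irgm1* and the single markers) were named after their values were seen. Per gene, the chi-square between replicates was 4.4 for Tc1 and 40.8 for Tc9, both beyond sampling noise. Of 14652 numeric identifiers 14632 matched RefSeq, whose GRCm38.p6 coordinates and promoters were used.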

Additional observations from a re-analysis of the deposited data

How the results depend on the processing

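Differences for *H2-K1*, *H2-Aa* and *Cd74* kept their direction and stayed uncalled under all 5 alternatives, and *H2-Ab1* stayed higher, losing its call with no filter on low counts (log2 difference 1.95, edgeR adjusted p = 0.214). *H2-D1* turned to 0.024 with depth alone and to 0.020 with limma on log2(FPKM + 1). *B2m* ranged from -0.213 to -0.031 when each library was left out. The *Ciita* ratio was 0.027 on log2(FPKM + 1) against 0.46.

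Over 4 libraries, 130 genes were called higher and 110 lower with no filter, and 72 to 405 higher and 39 to 405 lower when a library was left out, against 224 and 214. Over 3 libraries, against 197 and 84, depth alone gave 371 higher and 163 lower, TMM factors of the 3-library range gave 328 and 211, and no filter gave 0 and 0 by edgeR among 3431 genes, of which 598 were at an unadjusted p under 0.05, while DESeq2 called 217 and 121 and limma 251 and 112. The cause was not tested. Of the other genes called in the lists, 13 lost their call with no filter, 6 without Tc1 replicate 1 and 5 without Tc1 replicate 2.

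Over genes, the deviations of same-numbered libraries had a correlation of -0.0644. With 2 libraries per group this cannot show whether the numbers pair them. With the replicate block, 231 genes were called higher and 213 lower, and 406 of these calls were also made without it, and *B2m* was at -0.12 (edgeR adjusted p = 0.460). At these depths *H2-Aa* and *Ciita*, at 22 counts or fewer, limit what can be told.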
